A study of Mus musculus with 6 samples.

Results

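The genes of the carnitine shuttle and of mitochondrial fat oxidation were followed in RNA of mouse pancreatic islets. They were chosen by name: Cpt1a, Cpt2, Slc25a20, Acadvl, Acadm, Hadha, Hadhb, Hadh, Pdk4 and Ucp2. All 10 genes were linked to an assembled locus, and 9 were analysed out of 23983 loci tested. Ucp2 was left out because 100% of its exonic bases are shared with another locus. The islets came from C57BL/6 mice, an inbred strain, killed at 14 weeks of age once they had been fed a normal or a high fat diet for 8 weeks, with 3 libraries per diet. The labels name no genetic change or drug for either group. Normal diet columns are abbreviated ND in the count table, and columns abbreviated HDR were read as high fat, so every direction below depends on that reading. Nothing says whether the libraries came from separate animals or pools. Each p-value therefore weighs the diet difference only against the scatter of these libraries, and that scatter may be technical.

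Long-chain fatty acids cross the inner mitochondrial membrane as carnitine esters. Cpt1a on the outer membrane makes the acylcarnitine, the carrier Slc25a20 exchanges it for free carnitine, and Cpt2 on the inner membrane restores acyl-CoA. Acyl-CoA is then shortened in repeated cycles by acyl-CoA dehydrogenases (Acadvl for very long chains, Acadm for medium chains), the trifunctional protein (Hadha and Hadhb) and the 3-hydroxyacyl-CoA dehydrogenase Hadh. Pdk4 inhibits the pyruvate dehydrogenase complex and so limits glucose oxidation, and Ucp2 is an inner membrane carrier. Beta cells use glucose as their main signal for insulin secretion, malonyl-CoA made from glucose inhibits Cpt1a, and loss of HADH in people causes excess insulin secretion.

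The libraries held 104657337 to 135353777 counted reads. All 548 loci with every exonic base shared had 0 counts in all libraries, and the sharing was between opposite strands. Islet hormone genes were abundant, with Iapp at 35729 ± 803 CPM (read counts scaled to library size after TMM normalisation; SD, n = 3) on the normal diet and Gcg at 23097 ± 1182 CPM. High fat library 3 stood apart from its group, with a score of 59.4 on principal component 2 where high fat libraries 1 and 2 scored -32.3 and -25.5. Some cell type markers moved with diet. The summed level of 6 beta cell markers, mostly Iapp, was 58578 to 68868 CPM in normal diet and 84423 to 103790 CPM in high fat libraries. That of 4 alpha cell markers, mostly Gcg, was 22136 to 24449 and 17357 to 21018 CPM. Of the 6 beta cell markers 2 passed the test as higher, and of the 4 alpha cell markers 2 passed as lower. Gcg itself did not pass (edgeR adjusted p = 0.080). The median log2 fold change of the beta cell markers was 0.28, and -0.11 under cyclic loess normalisation. Acinar markers, of which 1 of 17 passed the test as higher, summed to 3640 to 7023 and 5330 to 11415 CPM. In bulk RNA, fewer cells of a type and less RNA per cell cannot be told apart, and except for a fit with the acinar level as a covariate the part of these shifts in the results below was not tested.

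The promoters of the genes with the largest rises are shown here with that of Hadha, which Hadhb shares, and that of Pdk4, which did not pass the test. Each window runs from 250 bases before to 50 bases after the RefSeq start site (GRCm38.p6), 5′ to 3′ on the gene's strand. Capitals mark the nuclear receptor hexamer AGGTCA or its reverse complement TGACCT, and the GC box GGGCGG or its reverse complement CCGCCC.
Cpt1a (chr19:3323051-3323350, plus strand): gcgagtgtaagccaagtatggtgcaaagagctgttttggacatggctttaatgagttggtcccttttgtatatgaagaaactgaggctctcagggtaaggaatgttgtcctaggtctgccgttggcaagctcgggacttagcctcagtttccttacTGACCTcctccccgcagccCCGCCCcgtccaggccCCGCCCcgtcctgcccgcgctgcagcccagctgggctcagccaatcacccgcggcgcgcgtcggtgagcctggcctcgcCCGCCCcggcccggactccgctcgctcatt
Slc25a20 (chr9:108661886-108662185, plus strand): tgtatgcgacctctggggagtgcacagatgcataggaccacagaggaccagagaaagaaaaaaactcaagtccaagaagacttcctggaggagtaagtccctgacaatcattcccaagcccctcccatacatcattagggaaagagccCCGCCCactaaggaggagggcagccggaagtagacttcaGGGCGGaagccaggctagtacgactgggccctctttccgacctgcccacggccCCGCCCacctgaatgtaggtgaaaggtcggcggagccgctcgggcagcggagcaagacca
Hadha (chr5:30154931-30155230, minus strand): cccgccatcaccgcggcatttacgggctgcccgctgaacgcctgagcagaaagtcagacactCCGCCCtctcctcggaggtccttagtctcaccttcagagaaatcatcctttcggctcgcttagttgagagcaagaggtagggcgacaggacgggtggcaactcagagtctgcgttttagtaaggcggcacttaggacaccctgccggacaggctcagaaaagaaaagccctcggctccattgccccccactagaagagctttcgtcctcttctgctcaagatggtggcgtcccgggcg
Pdk4 (chr6:5496229-5496528, minus strand): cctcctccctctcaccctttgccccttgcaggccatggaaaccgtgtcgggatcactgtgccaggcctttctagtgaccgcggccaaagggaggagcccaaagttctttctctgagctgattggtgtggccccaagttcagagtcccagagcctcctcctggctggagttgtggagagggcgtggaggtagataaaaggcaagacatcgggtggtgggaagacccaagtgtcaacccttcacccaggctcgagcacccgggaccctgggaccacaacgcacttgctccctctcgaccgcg

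Of the 10 promoter windows, 7 held a GC box on either strand, against 35.7% of 32851 windows of the same length. Cpt1a, Cpt2 and Slc25a20 held 3 each, and Hadh and Hadhb held 4 each. The hexamer was found in 3 of 10 (Cpt1a, 94 bases before the start site, Acadvl and Acadm), against 16.3% of all windows. A direct repeat of AGGNCA with 1 base between the copies, the form bound by PPAR with RXR, was found in 0 of 10 windows and in 0.381% of all. In mm9 the Hadha and Hadhb loci lie head to head with 126 bases between them, and their GRCm38 windows overlap by 228 bases. The only GC box of Hadha, 188 bases before its start site, lies in that overlap. It is the same stretch as the Hadhb box 90 bases before the Hadhb start site, so it was counted for both genes. The GC content of the 10 windows ran from 50.7% (Acadvl) to 64.3% (Ucp2), with a median of 52.7% over all windows. These matches describe letters in the windows and are not measured binding.

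In high fat islets 3 of the 9 analysed genes rose and 0 fell: Cpt1a 2.02-fold, Slc25a20 1.73-fold and Hadha 1.20-fold. The test was edgeR's quasi-likelihood test over all loci with Benjamini-Hochberg adjustment, and a gene passed at an adjusted p of 0.05 or less. The same fit called 5.95% of all loci higher and 4.86% lower. Among 6493 named coding loci at least as abundant as Pdk4, the lowest of the 9, it called 15.4% higher. At an unadjusted p under 0.05, 5 of the 9 were higher and 0 lower, against 15.4% and 16.4% of all loci and, for higher, 36.5% of those coding loci. DESeq2 also called 5 higher and 0 lower, against 11.8% and 7.85% of the loci it gave an adjusted p. All 9 log2 fold changes were above 0, with a median of 0.27 against -0.050 over all loci and 0.16 over those coding loci. Under cyclic loess normalisation 8 of the 9 were above 0, with a median of 0.094 against 0.011 over those coding loci. In 6 of the 9 every high fat library lay above every normal diet library, as in 18.8% of all loci and 42.4% of those coding loci; the reverse order was seen in 0 of the 9 and in 20.4% of all loci. No test of the group as a whole was made. When any 1 normal diet library was left out, edgeR called 0 of the genes (3, 4 and 5 at an unadjusted p under 0.05, leaving out library 1, 2 and 3 in turn) and 0 loci in all. It called 2, 1 and 4 of them when high fat library 1, 2 and 3 was omitted, and 0 with the acinar level as a covariate (4 at an unadjusted p under 0.05).

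**Figure D1:**
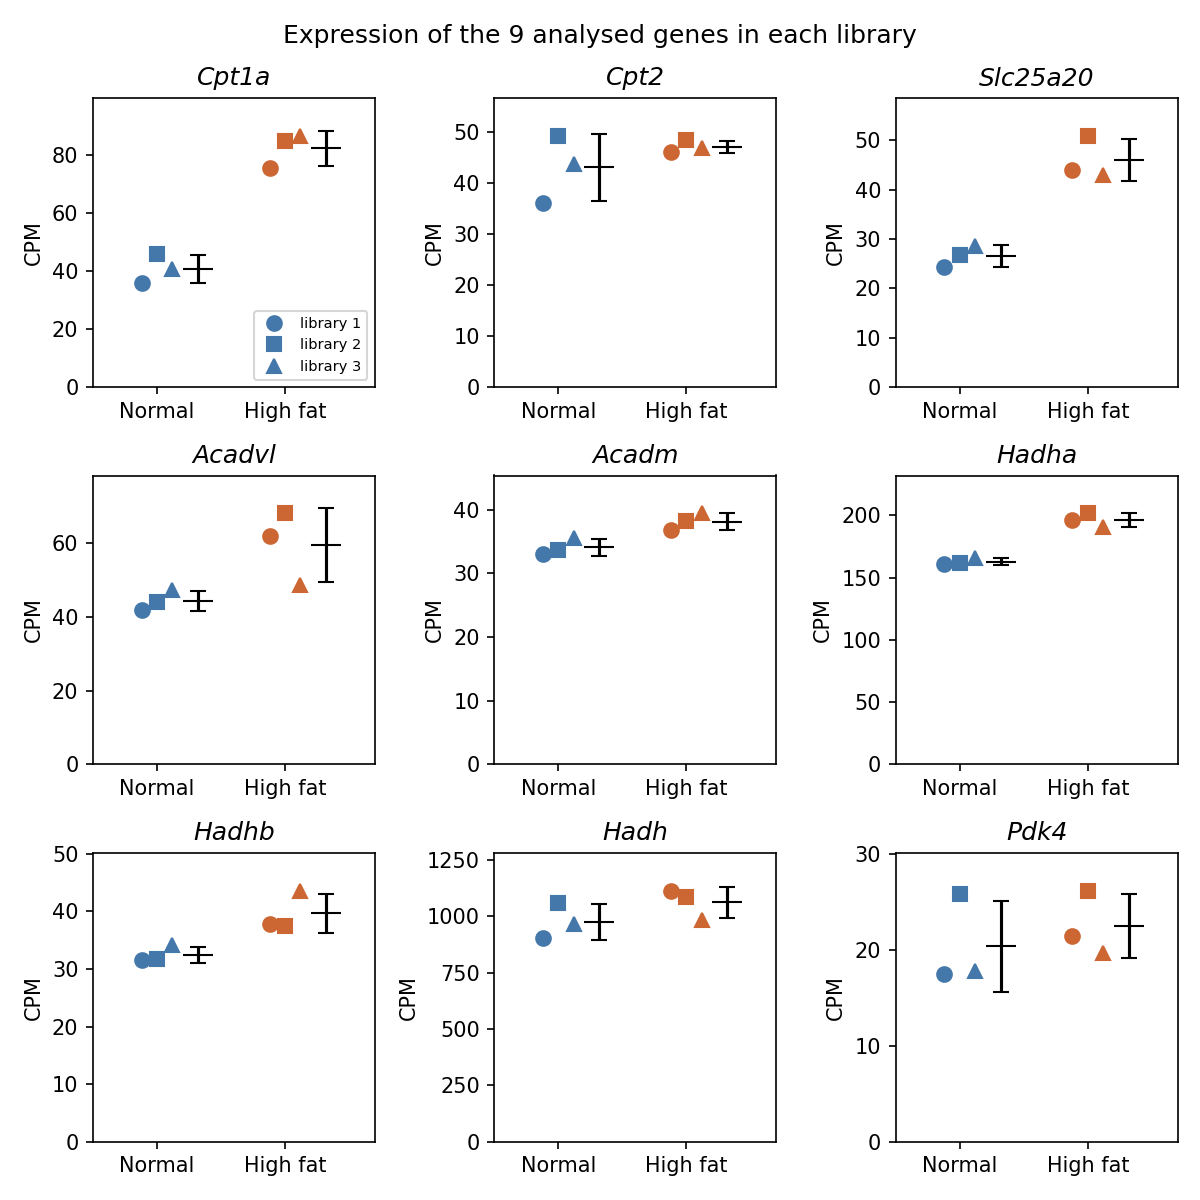
CPM (vertical axis, from 0) of each analysed gene in the 3 normal diet and 3 high fat libraries, with the symbol giving the library number and black bars the mean ± SD. Cpt1a and Slc25a20 have the widest gaps between the diets, and the points of Cpt2, Hadh and Pdk4 overlap.

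Of the carnitine shuttle genes Cpt1a and Slc25a20 rose, and Cpt2 did not pass the test. Cpt1a, whose enzyme sets the pace of fatty acid entry (chromosome 19, 3323301 to 3385733, plus strand, mm9), has 4301 exonic bases and shares none. It stood at 35.9, 45.8 and 40.6 CPM in normal diet libraries 1 to 3 and at 75.5, 84.8 and 86.7 CPM in high fat libraries 1 to 3. The lowest high fat library was far above the highest normal diet library. The log2 fold change was 1.02 (SE 0.11, 95% interval 0.77 to 1.26, edgeR adjusted p = 0.0092). With the acinar covariate it was 0.89 (adjusted p = 0.094), and leaving out normal diet library 1, 2 and 3 in turn it was 0.91, 1.09 and 0.99 (adjusted p = 0.087, 0.055 and 0.083).

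Slc25a20, the carnitine-acylcarnitine carrier (chromosome 9, 108564429 to 108586972, plus strand, mm9), stood at 24.2, 26.8 and 28.7 CPM in normal diet libraries 1 to 3 against 44.0, 51.0 and 43.0 CPM in high fat libraries 1 to 3. Here too the diets were fully apart, with high fat library 2 the highest. Its log2 fold change was 0.79 (SE 0.11, edgeR adjusted p = 0.014). It did not pass with the acinar covariate (adjusted p = 0.113), when normal diet library 1, 2 or 3 was omitted (0.095, 0.078 and 0.083) or when high fat library 2 was (0.051).

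Cpt2, the inner membrane transferase (chromosome 4, 107576587 to 107596194, minus strand, mm9), stood at 36.1, 49.3 and 43.7 CPM in normal diet libraries 1 to 3 against 46.1, 48.3 and 46.8 CPM in high fat libraries 1 to 3. The high fat values lay inside the normal diet range. The log2 fold change of 0.13 (0.028 under cyclic loess) did not pass (edgeR adjusted p = 0.48), and its 95% interval of -0.14 to 0.39 reaches neither that of Cpt1a nor that of Slc25a20. The difference between these changes was not tested. Per kilobase of exon (RPKM), the ratio of Cpt1a to Cpt2 was 0.507 to 0.542 in the normal diet libraries and 0.895 to 1.01 in the high fat libraries. That of Slc25a20 to Cpt2 was 0.717 to 0.884 and 1.21 to 1.39. The ratio of Cpt1a to Slc25a20 overlapped between the diets, at 0.587 to 0.708 and 0.690 to 0.836.

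**Figure D2:**
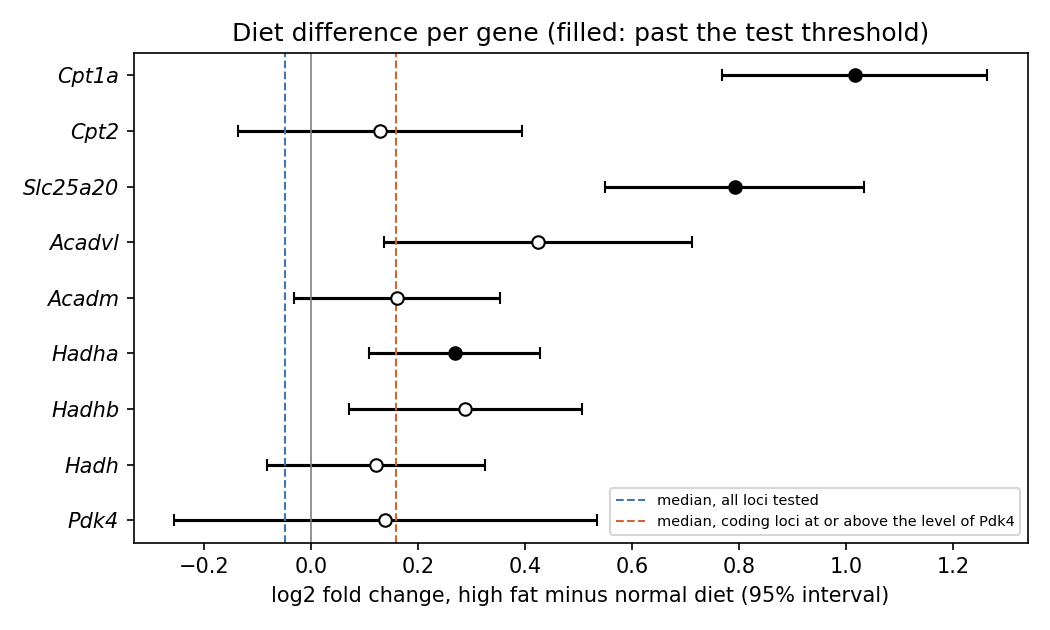
Log2 fold change of each analysed gene (horizontal axis, high fat minus normal diet) with its 95% interval, filled where the gene passed the test. Cpt1a at 1.02 and Slc25a20 at 0.79 stand to the right of the other 7 genes, which lie between 0.12 and 0.42; dashed lines mark the medians of all loci (-0.050) and of coding loci at least as abundant as Pdk4 (0.16).

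The dehydrogenases of the first step differed in spread. Acadvl (chromosome 11, 69823694 to 69828909, minus strand, mm9) stood at 41.8, 43.9 and 47.3 CPM in normal diet libraries 1 to 3 against 61.8, 68.1 and 48.6 CPM in high fat libraries 1 to 3. High fat library 3 was barely above the normal diet libraries. The log2 fold change of 0.42 (SE 0.13) missed the threshold (edgeR adjusted p = 0.062), and without high fat library 3 it was 0.56 (adjusted p = 0.0035). Of its exonic bases 44.8% are shared with Dvl2 on the other strand, so its level rests on the other exons. For Dvl2 itself the log2 fold change was -0.21 (adjusted p = 0.55). Acadm (chromosome 3, 153585319 to 153607622, minus strand, mm9) stood at 33.1, 33.6 and 35.6 CPM against 36.8, 38.2 and 39.5 CPM. The diets did not overlap, yet the gap was small, and the log2 fold change of 0.16 (95% interval -0.031 to 0.35; 0.064 under cyclic loess) did not pass (adjusted p = 0.22).

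Hadha, the alpha subunit of the trifunctional protein (chromosome 5, 30444844 to 30481702, minus strand, mm9), stood at 161, 162 and 166 CPM in normal diet libraries 1 to 3 against 196, 202 and 191 CPM in high fat libraries 1 to 3. The diets were fully apart, and the normal diet libraries lay close together, with an SD of 2.62 CPM around a mean of 163 CPM. The log2 fold change was 0.27 (SE 0.070, edgeR adjusted p = 0.046). Of the 3 genes that rose it passed in the fewest alternatives, 3 of 12, with values from 0.065 under cyclic loess normalisation (adjusted p = 0.60) to 0.31 by DESeq2. Hadhb, the beta subunit (chromosome 5, 30481829 to 30511123, plus strand, mm9), stood at 31.5, 31.7 and 34.1 CPM against 37.8, 37.4 and 43.6 CPM. Every high fat library was above every normal diet library, and the log2 fold change of 0.29 (SE 0.096) missed the threshold (adjusted p = 0.082). The RPKM ratio of Hadha to Hadhb overlapped between the diets, at 2.04 to 2.15 in normal diet and 1.84 to 2.27 in high fat libraries.

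Hadh, which acts on shorter chains (chromosome 3, 130936342 to 130974955, minus strand, mm9), was by far the most abundant of the analysed genes. It stood at 901, 1059 and 965 CPM in normal diet libraries 1 to 3 against 1113, 1086 and 983 CPM in high fat libraries 1 to 3. High fat library 3 fell inside the normal diet range. The log2 fold change was 0.12 (95% interval -0.082 to 0.32, edgeR adjusted p = 0.38), and under cyclic loess it was -0.18 (adjusted p = 0.24). Pdk4 (chromosome 6, 5433351 to 5446278, minus strand, mm9), a gene that fasting and fatty acids are known to raise in muscle and liver, stood at 17.6, 25.9 and 17.8 CPM against 21.5, 26.2 and 19.7 CPM. Library 2 was the highest of each diet. The log2 fold change was 0.14, with a 95% interval of -0.26 to 0.53 (adjusted p = 0.62). Leaving out 1 library at a time moved it from 0.022 without normal diet library 1 to 0.33 without normal diet library 2.

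**Figure D3:**
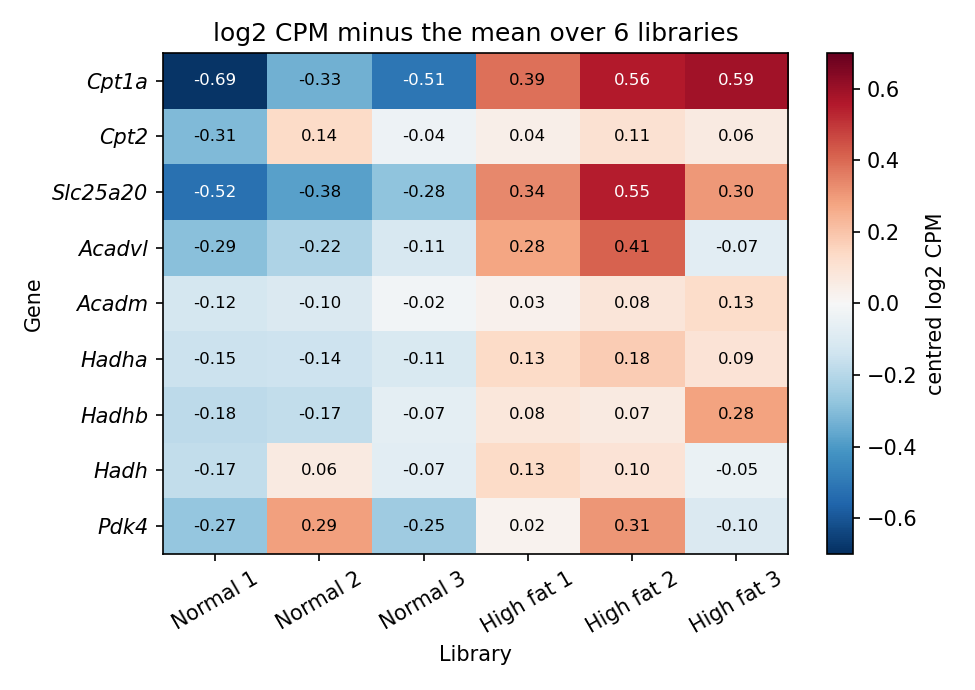
Log2 CPM of each analysed gene (rows) in each library (columns) minus that gene's mean over the 6 libraries, with the value printed in each cell. Normal diet library 1 is the lowest library for all 9 genes, and high fat libraries 1 and 2 are above the mean for all 9.

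Normal diet library 1 held the lowest value of all 9 genes, with a median of -0.27 log2 units from each gene's mean. The other normal diet libraries had medians of -0.14 and -0.11. High fat library 2 was the highest for 4 genes, high fat library 3 for 3, and high fat library 1 and normal diet library 2 for 1 each. In high fat library 3 only 6 of the 9 were above their mean, the exceptions being Acadvl, Hadh and Pdk4. Acinar markers were also lowest in normal diet library 1 and highest in high fat library 2, at 3640 and 11415 CPM. The first principal component placed normal diet library 1 at -53.3 and the other normal diet libraries at -30.6 and -29.5.

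Per kilobase of exon not shared with another locus, Hadh led on the normal diet at 199 ± 16 RPKM (SD, n = 3). Acadvl (37.2 ± 2.3 RPKM) and Hadha (33.7 ± 0.54) followed, 5.34-fold and more below it. Over its full exonic length Acadvl would stand at 20.5 RPKM, so its place above Hadha depends on how shared exons are treated. Cpt2 (18.3 ± 2.8), Acadm (16.4 ± 0.63), Hadhb (16.0 ± 0.72) and Slc25a20 (14.9 ± 1.2) formed a group in which each overlapped the next. Cpt1a (9.47 ± 1.2 RPKM) and Pdk4 (5.45 ± 1.3) lay below, each clear of the gene above it. On the high fat diet Hadh stood at 216 ± 14 RPKM and Pdk4 was again last at 6.00 ± 0.89. Slc25a20 at 25.8 ± 2.4 RPKM was now clear of Cpt2 at 20.03 ± 0.49. Hadhb, Cpt1a (19.1 ± 1.4 RPKM) and Acadm followed, each overlapping the gene before it. RPKM depends on the assembled exons, which for Hadha come from 7 transcript models.

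**Figure D4:**
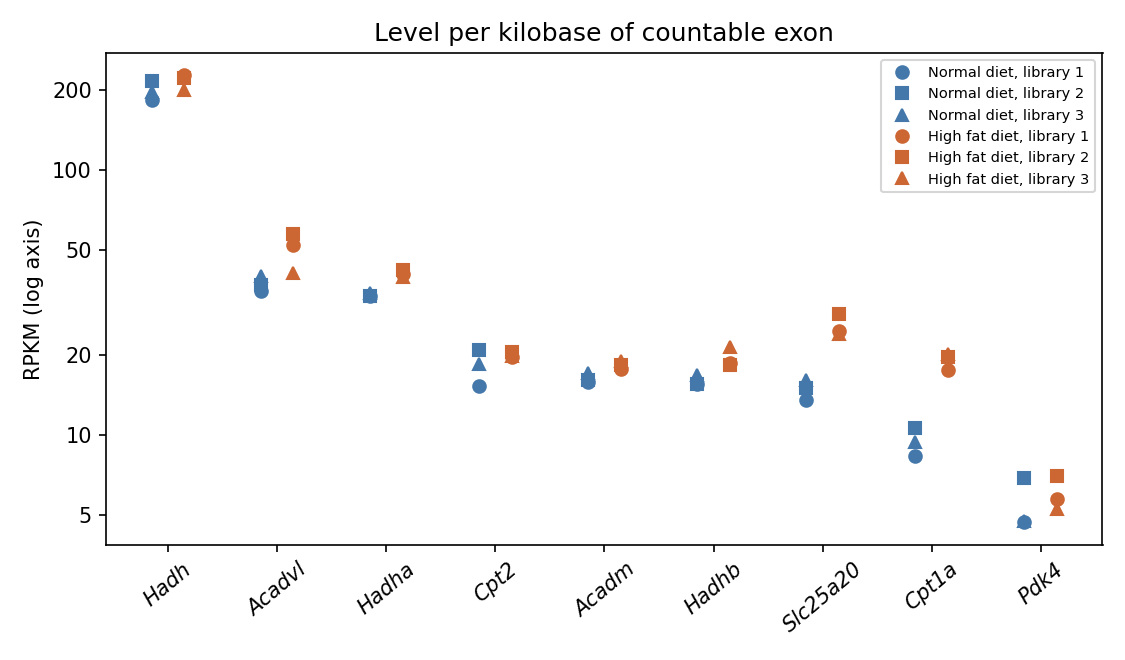
RPKM (vertical log axis) of the 9 analysed genes ordered by their normal diet mean, with 3 libraries per diet. Hadh lies between 184 and 227 RPKM in the 6 libraries, and Slc25a20 and Cpt1a are the genes whose diets are furthest apart.

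Cpt1b, the muscle form, stood at 3.48 ± 0.71 CPM in normal diet and 2.17 ± 0.31 CPM in high fat libraries (log2 fold change -0.68, edgeR adjusted p = 0.055). Cpt1c, the neuronal form, stood at 11.9 ± 0.71 and 8.26 ± 1.7 CPM (-0.53, adjusted p = 0.064). Neither passed by edgeR, while DESeq2 called both lower (adjusted p = 0.014 and 0.031), and in both the high fat libraries lay below the normal diet libraries. The RPKM ratio of Cpt1a to Cpt1b went from 5.51 to 9.27 across normal diet libraries to 21.5 to 31.5 across high fat libraries, and that of Cpt1a to Cpt1c from 3.85 to 4.62 to 10.5 to 16.3. Among pyruvate dehydrogenase kinases, Pdk1 and Pdk3 rose by 0.41 and 0.40 on the log2 scale (adjusted p = 0.029 and 0.045), from 72.2 ± 1.2 to 95.9 ± 8.4 CPM and from 41.7 ± 1.7 to 55.0 ± 6.6 CPM. Under cyclic loess Pdk1 and Pdk3 stood at 0.25 and 0.28, and neither passed (limma adjusted p = 0.15 and 0.18). Pdk2 stood at 0.095 (adjusted p = 0.78). Per kilobase Pdk1 exceeded Pdk4 in every library, by 1.502 to 2.14 times on the normal diet and 1.86 to 2.83 times on the high fat diet. Ucp1 and Ucp3 were too low to test, at 0 to 5 and 1 to 12 reads per library. The Ucp2 locus (chromosome 7, 107641854 to 107650682, plus strand, mm9) had 0 counts in every library, and all its exonic bases are shared with Dnajb13 on the other strand. Every locus with all exonic bases shared had 0 counts, so these counts give no level for Ucp2.

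Beyond these genes, 84 others in 8 lists of the pathway and its regulators were tested, of which 20 rose and 1 fell, with a median log2 fold change of 0.24. Under cyclic loess with limma 4 rose, among them the low Eci2 locus described below, and 1 fell. The unadjusted counts below stand beside 15.4% of all loci higher and 16.4% lower. Of the named coding loci at least as abundant as Pdk4, 36.5% were higher at that level. At the adjusted threshold edgeR called 5.95% of all loci higher and 4.86% lower. Of those coding loci it called 15.4% higher and 1.26% lower. Of 18 other genes of mitochondrial beta-oxidation 7 rose and 0 fell (13 and 0 at an unadjusted p under 0.05; median 0.36). Acat1, a mitochondrial thiolase, rose from 155 ± 7.3 to 228 ± 13 CPM (0.56, edgeR adjusted p = 0.017). Etfdh, which passes electrons from the dehydrogenases to ubiquinone, rose by 0.45 (adjusted p = 0.026) and Acad11 by 0.40 (0.028). The count includes Eci2, for which the locus counted stood below 1 CPM in every library and the main locus shares all its exonic bases; without it 6 of 17 rose. Under cyclic loess 1 of the 18 passed, and it was the low Eci2 locus (1.67, limma adjusted p = 0.042). Acat1, Etfdh and Acad11 stood at 0.35, 0.30 and 0.24 there (limma adjusted p = 0.052, 0.10 and 0.13). Among 13 genes of acyl-CoA activation and carnitine handling 1 rose and 0 fell (4 and 2 unadjusted; median 0.20), namely Acsl4, a long-chain acyl-CoA synthetase, from 81.8 ± 0.92 to 106 ± 9.5 CPM. Under cyclic loess Acsl4 stood at 0.21 (limma adjusted p = 0.20) and the list's median at 0.053. Of 11 peroxisomal genes 1 rose and 0 fell (5 and 0 unadjusted; median 0.10), Hsd17b4 at 0.28 (adjusted p = 0.046), which stood at 0.12 under cyclic loess (limma adjusted p = 0.37). Of 4 ketone body enzymes 0 passed by edgeR or DESeq2 (1 and 0 unadjusted; median 0.19).

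Of 12 genes of the pyruvate dehydrogenase complex, its regulators and pyruvate entry 5 rose and 0 fell (9 and 0 unadjusted; median 0.28). Pdhb and Dld, subunits of the complex, rose by 0.37 (edgeR adjusted p = 0.026) and 0.39 (0.037) on the log2 scale. The other 3 were Pdk1, Pdk3 and Pdha1. None of these 5 passed under cyclic loess, where Pdhb stood at 0.21 and Dld at 0.20 (limma adjusted p = 0.14 and 0.25). Of 5 other inner membrane carriers 2 rose, Slc25a5 (0.34) and Slc25a14 (0.37), and Slc25a27 fell from 24.9 ± 1.9 to 15.7 ± 2.5 CPM (-0.67, adjusted p = 0.027). Under cyclic loess Slc25a5 stood at 0.14 and Slc25a14 at 0.26 (limma adjusted p = 0.31 and 0.14), and Slc25a27 still fell (-0.73, adjusted p = 0.047). Of 10 PPAR and coactivator genes 1 rose and 0 fell (2 and 1 unadjusted; median -0.10). This was Ppargc1a, the coactivator PGC-1alpha of mitochondrial genes, which went from 4.17 ± 0.73 to 9.16 ± 1.7 CPM (1.14, adjusted p = 0.020). Ppara, Ppard and Pparg stood at -0.16, -0.24 and 0.33 (adjusted p = 0.47, 0.59 and 0.15). Of 12 genes listed as other PPAR targets 3 rose and 0 fell (5 and 0 unadjusted, median 0.30). The fatty acid binding protein gene Fabp4 rose by 1.33 (edgeR adjusted p = 0.015), the fatty acid transporter gene Cd36 by 0.93 (0.019) and Txnip by 0.72 (0.046). Txnip, with 28.8% of its exonic bases shared, stood at 449, 509 and 417 CPM in normal diet libraries 1 to 3. In high fat libraries 1 to 3 it stood at 602, 637 and 1024 CPM. Under cyclic loess Txnip stood at 0.41 (limma adjusted p = 0.21), and Ppargc1a, Fabp4 and Cd36 still passed. Fabp4 also marks adipocytes and Cd36 capillary endothelium. The adipocyte genes Lep and Plin1 were at 0 in all libraries, and Adipoq had 6 reads in all; the 4 adipocyte markers tested, mostly Lpl, summed to 181 to 243 CPM in normal diet and 132 to 163 CPM in high fat libraries. The 9 endothelial markers summed to 404 to 455 and 403 to 505 CPM, and the part of either cell type was not tested. With the acinar covariate, or without any 1 normal diet library, edgeR called 0 of the 84 higher, with high fat library 1 or 2 left out 4 and 1, and with high fat library 3 left out 36.

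**Figure D5:**
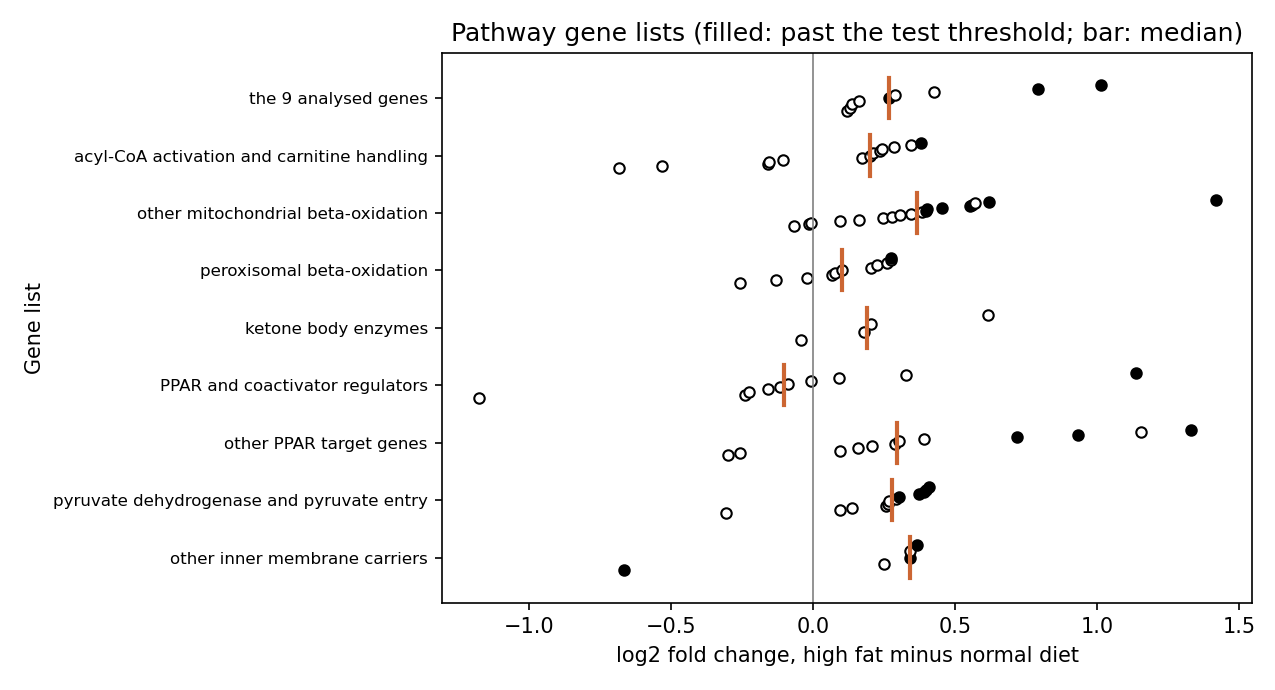
Log2 fold change (horizontal axis, high fat minus normal diet) of each tested gene of the 9 pathway lists, filled where it passed the test, with an orange bar at each list's median. The medians run from -0.10 for PPAR and coactivator regulators to 0.36 for other mitochondrial beta-oxidation, and the gene furthest right in that list is the low Eci2 locus.

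The named coding genes whose profile over the 6 libraries was closest to that of Cpt1a were Pter, Trpc4, Tmem255a, Rnase4 and P3h2. The measure was the Euclidean distance between log2 CPM values centred on each gene's mean, over 11499 coding loci of at least 1 CPM. Their distances were 0.24 to 0.28, and their log2 fold changes lay between 0.85 and 1.10. Cpt1a varied mostly between the diets, so closeness to it by this measure largely restates a similar diet difference. Pter and Tmem255a have 50.5% and 56.1% of their exonic bases shared. Slc25a20 ranked 19 in closeness, at a distance of 0.40, and the other analysed genes ranked from 1244 (Acadvl) to 4710 (Pdk4).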

How the data were processed

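Total RNA was depleted of ribosomal RNA and made into stranded, paired-end libraries without poly(A) selection, per the labels' protocols. The authors deposited raw read counts per assembled locus and the assembled transcripts in mm9, whose coordinates are the only other values used. The submitters' processing notes list the tools edgeR, HTSeq 0.5.4p3, Cufflinks 2.1.1 and TopHat2 2.0.8; the use of strand in counting is not given in the sources used here.

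Loci carry no gene symbols. They were linked to GENCODE M21 genes by identical internal exon and intron lengths on the same chromosome and strand (for loci of 2 exons, with outer exons within 40 bases), an inference from structure that named 19727 loci. Loci over 90% shared were skipped; of 188 listed symbols 172 were used. The genes and lists were chosen with earlier results of these data known.

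Counts were tested in R 4.3.3 with edgeR 4.0.16 (filterByExpr, TMM, quasi-likelihood test for diet, two-sided) and checked on simulated data. SE is the absolute log2 fold change over the square root of F. Limma 3.58.1 and DESeq2 1.42.0 served in alternatives. Named are all members, up to 3 genes per list and direction by adjusted p, the paralogs, kinases and PPAR genes, the 5 profiles nearest Cpt1a and the highest marker of each cell type, of which 1 is not reported here. Eci2, Pdha1, Adipoq, Lep, Plin1, the loci that overlap a member and the markers named at the end by their change were chosen after their values were seen.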

Additional observations from a re-analysis of the deposited data

How the results depend on the processing

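With all libraries edgeR called 1426 loci higher and 1165 lower, and 3 of the 9 genes higher. A fit with the replicate block called 54 and 20 loci and 1 gene (Cpt1a, adjusted p = 0.049; Slc25a20, 0.053), and 0 of the 84 other pathway genes, cyclic loess with limma trend 249 and 232 loci and 2 genes, the acinar covariate 0 and 0 loci and 0 genes (4637 loci and 4 genes at an unadjusted p under 0.05), and DESeq2 2476 loci higher and 5 genes. Leaving out 1 library at a time gave 0 to 3075 loci higher, 0 to 1960 lower and 0 to 4 genes higher. In no alternative was any of the 9 genes called lower. Cpt1a, Slc25a20, Acadvl, Acadm, Hadha and Hadhb kept their direction in 12 of 12 alternatives. Reversed were Hadh under cyclic loess (-0.18), Pdk4 with the acinar covariate (-0.024) and Cpt2 without normal diet library 1 (-0.0028; 0.22 at most over the libraries left out), none of which had passed the test; the cause was not tested. Same-numbered libraries did not deviate together (r = -0.075, 0.075 and -0.014 across loci), and differently numbered ones had r from -0.16 to 0.15. With 3 libraries per diet this cannot settle whether the numbers pair them. Summing loci per gene was not run, since each of the 9 had 1 linked locus.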

Other observations

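The loci that share the span of an analysed gene were measured as well. Dvl2, on the other strand of Acadvl, had 2588, 2679 and 3335 reads in normal diet libraries 1 to 3 against 2823, 2112 and 1634 in high fat libraries 1 to 3. Dnajb13, whose locus covers all exons of Ucp2, had 2746, 1922 and 2423 reads against 1906, 1521 and 1797 (log2 fold change -0.28, edgeR adjusted p = 0.18), with 26.6% of its own exonic bases shared. Garem2, which touches the end of Hadha, had 53 reads in all, and an unnamed locus of 78 bases inside Hadhb had 63.

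Among markers of other cells, 3 of 6 Schwann cell markers fell: Sox10, a transcription factor of that lineage, by 1.43 on the log2 scale, Ngfr by 1.30 and Gfap by 1.13. Of 4 alpha cell markers Irx1 and Irx2 fell by 0.998 and 0.53 (edgeR adjusted p from 0.022 to 0.041 for these 5 genes). Of 11 stromal and muscle markers Rgs5 and Acta2 rose by 0.69 and 0.83, while the median of that list was -0.44. Lpl, which is listed with adipocytes, fell from 194 ± 34 to 121 ± 18 CPM. Of 7 macrophage markers Csf1r fell by 0.50 on the log2 scale, and the list summed to 174 to 188 CPM in normal diet and 119 to 168 CPM in high fat libraries. The most abundant markers of further lists were Ppy (2657 ± 695 and 2408 ± 523 CPM), Pnlip (962 ± 289 and 1656 ± 629 CPM), Spp1 (38.1 ± 2.6 and 48.7 ± 9.3 CPM), Kdr (142 ± 16 and 147 ± 29 CPM) and C1qa (116 ± 2.4 and 93.4 ± 33 CPM), in normal diet and high fat libraries.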
